A study of Mus musculus with 10 samples.

Results

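Stretches of the mouse genome that hold several STAT5A peaks close together were examined in mammary tissue taken on the day of parturition. Peaks of the wild type STAT5A list that lay next to each other on a chromosome were joined into a run when the gap between them was at most 12.5 kb, and runs of 5 or more peaks are called clusters here. Of the 16597 runs (from 1 peak upwards) into which the 26237 STAT5A peaks fell, 434 were clusters, and these held 2610 peaks (9.95% of the list). The remainder comprised 10981 single peaks, 3434 runs of 2, 1214 runs of 3 and 534 runs of 4. The clusters were chosen by the peak positions of the STAT5A list, so their number, size and STAT5A scores are given as a description. The STAT5B lists took no part in the choice.

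Protein binding was mapped by ChIP-seq, in which chromatin is immunoprecipitated, and fragments bound by the antibody's target are sequenced and pile up as peaks. Peak lists of 3 of the 10 libraries were used, namely STAT5A and STAT5B from wild type mice and STAT5B from Stat5a-null mice. Mice of either genotype had the mixed background 129SV::FVB/N::C57BL/6. Wild type mice (AABB in the titles) carried Stat5a and Stat5b, and Stat5a-null mice (BB) lacked Stat5a and kept Stat5b. Each group was 1 library of whole mammary tissue, with the number of animals not given, so comparisons between libraries rest on single libraries and are given with no p-value. Total reads are unknown. The 2 STAT5B lists held 6976 peaks (wild type) and 2578 peaks (Stat5a-null), and this difference in length enters every comparison between them. The labelled tissue could not be checked against marker genes, because an mm9 gene annotation was not used here.

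STAT5A and STAT5B are near-identical transcription factors that are phosphorylated by JAK2 when prolactin binds its receptor, pair up, enter the nucleus and bind the palindrome TTCNNNGAA. In the mammary epithelium they are required for alveolar development and milk protein synthesis, and STAT5A is the more abundant of the pair there. Groups of closely spaced binding sites are often found at genes with strong, tissue-specific expression, where several enhancers lie within reach of a start site.

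Locus names are used here for 2 clusters. They are working names taken from the titles of other parts of this series, which place Socs3 and St3gal1 among the largest clusters. Of the 3 largest clusters, 1 lies on chromosome 11, which carries Socs3, and 1 on chromosome 15, which carries St3gal1. Only the chromosome was compared, since the RefSeq table used is of another build (GRCm38) than the peaks (mm9), so these names are working names and not an assignment by position. Chromosome 11 also carries the fourth-largest cluster. Socs3 encodes a suppressor of cytokine signalling that binds activated receptors and JAK kinases and is itself induced by STAT proteins. St3gal1 encodes a sialyltransferase that caps O-linked glycans on mucin-type glycoproteins. In RefSeq's order of protein-coding genes, Socs3 stands between Tha1 and Pgs1, and St3gal1 between Ndrg1 and Zfat. No gene was assigned to the other clusters.

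No promoter sequence of St3gal1 was available here, so it was not searched for the STAT5 palindrome. The promoter of Socs3, which gives its working name to one of the largest clusters, was available and contains the palindrome. The sequence is RefSeq's, build GRCm38.p6, minus strand, chr11:117969317-117969616, and runs from 250 bases before to 50 bases after the annotated start. These positions are not comparable with the mm9 positions of the peaks. Capitals mark the match to TTCNNNGAA, which reads the same on both strands as a pattern.
Socs3: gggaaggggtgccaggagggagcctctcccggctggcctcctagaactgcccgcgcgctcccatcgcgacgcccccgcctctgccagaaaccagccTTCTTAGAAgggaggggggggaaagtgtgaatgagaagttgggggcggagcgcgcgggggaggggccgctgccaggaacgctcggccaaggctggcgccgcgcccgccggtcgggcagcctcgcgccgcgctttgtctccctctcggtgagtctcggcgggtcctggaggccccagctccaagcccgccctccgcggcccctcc
The match, TTCTTAGAA, begins 154 bases before the start. A match was found in 8.30% of the 32851 promoters of this length, and 2 or more matches in 0.457%. Whether a peak lies on this promoter was not tested, and a match to the pattern is not by itself a binding site.

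Most clusters were small. The median cluster held 6 STAT5A peaks and spanned 25.4 kb (quartiles 19.6 kb and 33.1 kb, range 8.57 kb to 81.5 kb). There were 209 clusters of 5 peaks, 118 of 6, 56 of 7 and 30 of 8. Only 15 clusters had 10 or more peaks, and the highest number was 16. Together the spans covered 12 Mb. Neighbouring peaks of a cluster were separated by a median of 4.84 kb (quartiles 2.18 kb and 7.69 kb), with 10.98% of the 2176 gaps under 1 kb. The edge of the rule was not sharp: 186 clusters contained a gap over 10 kb, and 80 had a further STAT5A peak within 15 kb outside their ends. The widest gap inside a cluster was 12.493 kb, and the nearest peak outside a cluster lay 12.51 kb away. In scores, clusters of 5 peaks resembled runs of 4 just outside the rule, with median peak scores of 34.7 and 33.8.

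Within a cluster, peaks of very different height stood side by side. The score is the value the authors deposited with each peak, and it was compared only within a list. Clustered STAT5A peaks had a median score of 34.0 (quartiles 20.6 and 62.2), against 23.5 (16.5 and 41.4) for single peaks. The highest peak of a cluster scored a median of 88.1 and the lowest 16.2, and the ratio of highest to lowest within a cluster had a median of 4.46 (range 1.24 to 16.8). One peak did not usually hold most of the signal: the highest peak made up a median of 32.9% of a cluster's summed score, and it was a median of 1.38 times as high as the next. In 230 of the 434 clusters the highest peak belonged to the top decile of the whole STAT5A list, whereas 12 clusters had no peak in the higher-scoring 50% of the list. In 36.2% of clusters the highest peak stood at an end, and end peaks make up 33.3% of clustered peaks. The former counts clusters and the latter pools peaks over clusters of different size, so they are only roughly comparable.

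STAT5B was found in most clusters in wild type tissue, and in as many clusters as not in Stat5a-null tissue. A wild type STAT5B peak lay in 354 of the 434 clusters, or 81.6% (95% interval 77.6% to 85.1%). A Stat5a-null STAT5B peak lay in 217 clusters, or 50% (45.2% to 54.8%). Over all runs of 1 or more STAT5A peaks, these shares were 31.9% and 13.1%. All such intervals are exact Clopper-Pearson intervals, cover counting error only and treat peaks or runs as independent. The share was higher in runs of 4 than in single peaks, and a run with more peaks can meet a STAT5B peak at more places. Median STAT5A scores also differed with run size, from 23.5 for single peaks to 38.0 for peaks in clusters of 8 or more. For wild type STAT5B it was 20.8% of single peaks, 43.9% of runs of 2, 61.1% of runs of 3 and 75.7% of runs of 4. Clusters of 5, 6 and 7 peaks had it in 78.5%, 81.4% and 78.6% of cases, with overlapping intervals, and 50 of the 51 clusters of 8 or more peaks had it (98.0%, 89.6% to 99.95%). The Stat5a-null shares were 7.31% of single peaks, 38.6% of runs of 4, 46.9% of clusters of 5 and 76.5% (62.5% to 87.2%) of clusters of 8 or more.

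**Figure D1:**
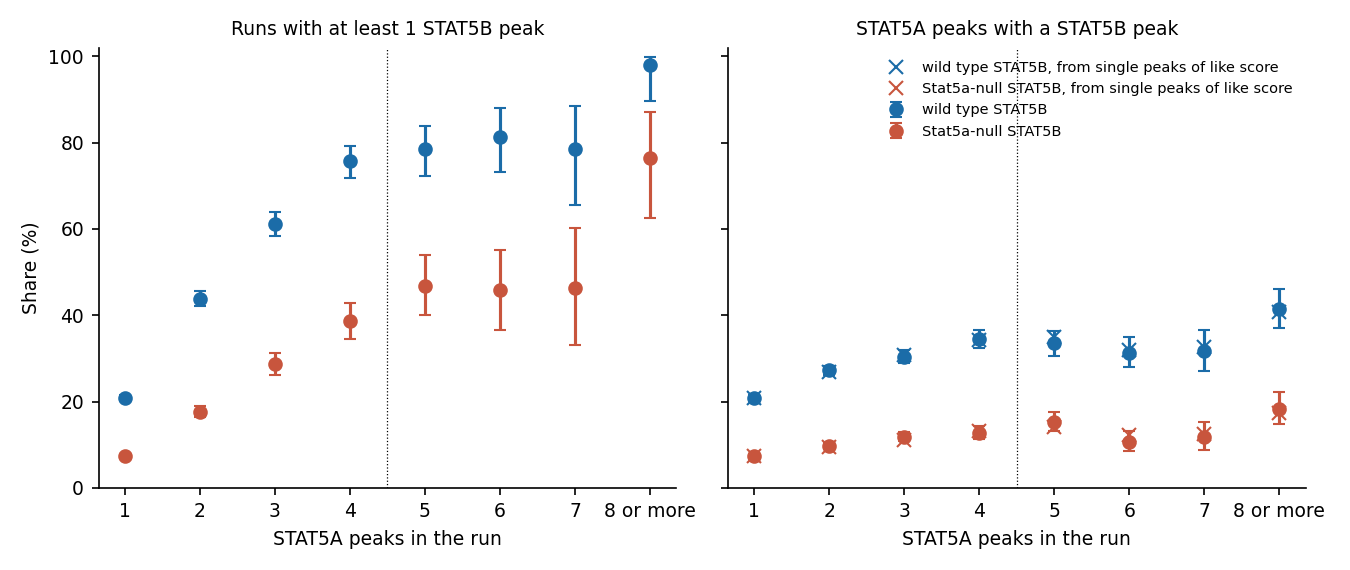
Share of STAT5A runs that hold at least 1 STAT5B peak (left) and share of the STAT5A peaks in those runs that overlap a STAT5B peak (right), in percent, by number of STAT5A peaks in the run. Points are shares with exact 95% intervals, crosses are the shares computed from single peaks (runs of 1) of the same score decile, and the dotted line marks where clusters begin. The left shares climb from 20.8% to 98.0% in wild type, and the crosses on the right lie within the intervals of the points for clusters.

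Counted per peak, clustered STAT5A peaks overlapped STAT5B more often than single ones. A wild type STAT5B peak was found at 889 of the 2610 clustered peaks (34.1%, 32.2% to 35.9%), against 2284 of the 10981 single peaks (20.8%, 20.04% to 21.6%) and 26.3% of all STAT5A peaks. STAT5B of Stat5a-null tissue was called at 366 clustered peaks (14.02%, 12.7% to 15.4%) and 803 single peaks (7.31%, 6.83% to 7.82%), against 9.67% of all STAT5A peaks. The intervals of clustered and single peaks did not meet in either genotype. Peaks in runs of 4, just outside the rule, had shares like those of clustered peaks. They were 34.4% (32.4% to 36.5%) for wild type and 12.8% (11.4% to 14.3%) for Stat5a-null STAT5B. The excess over single peaks was therefore not particular to clusters.

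This excess was no longer seen among peaks of like height. STAT5A peaks were split into deciles of their score over the whole list, and the shares compared within each. In the top decile, 99.0% of 412 clustered and 99.4% of 814 single peaks had a wild type STAT5B peak. In the second the shares were 89.1% and 91.6%, in the third 50.3% and 53.5%, and in the fourth 12.6% and 14.4%. For Stat5a-null STAT5B they were 68.0% and 66.6% in the top decile and 22.4% and 19.4% in the second. Over the 20 comparisons of deciles and lists, no 95% interval of the difference (Newcombe's method) left out 0. Many of these could hardly have shown a difference. In deciles 8 to 10, neither clustered nor single peaks had any wild type STAT5B. The same held for Stat5a-null STAT5B in deciles 8 and 10, and in the top decile nearly all peaks had wild type STAT5B. In the third decile, where the wild type difference was widest, it was -3.16 percentage points (-9.62 to 3.31), clustered minus single. In the second decile the Stat5a-null difference was 3.08 points (-2.01 to 8.62). Differences as large as the ends of these intervals remain possible.

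Applying the shares of single peaks, decile by decile, to the clustered peaks gave a figure close to the one observed. It came to 34.9% for wild type STAT5B against 34.1% observed, and to 13.9% for Stat5a-null STAT5B against 14.02% observed, and both lay within the intervals given above. Clustered peaks were more often high: 15.8% of them fell in the top decile and 6.21% in the lowest, compared with 7.41% and 12.7% of single peaks. For clusters of 8 or more peaks, the figure from single peaks was 40.9% for wild type STAT5B, and 41.5% (37.0% to 46.1%) was observed.

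**Figure D2:**
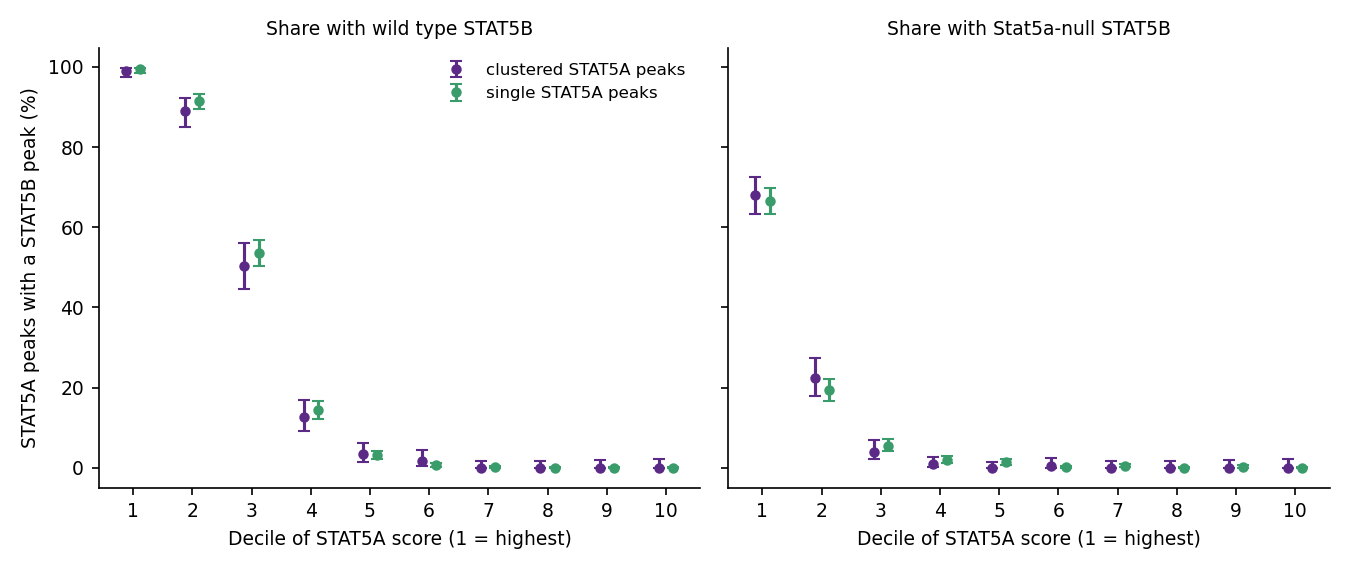
Share of STAT5A peaks that overlap a STAT5B peak, in percent, by decile of STAT5A score (1 is the highest), for wild type (left) and Stat5a-null tissue (right). Points are shares with exact 95% intervals for peaks in clusters and for single peaks, and the intervals overlap in every decile.

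Inside a cluster, STAT5B followed the rank of the STAT5A peaks. At the highest STAT5A peak of a cluster a wild type STAT5B peak was found in 78.8% of cases (74.7% to 82.6%), at the second in 55.1%, at the third in 34.6%, at the fourth in 19.1% and at rank 5 in 9.45% (6.86% to 12.6%). The Stat5a-null shares fell from 45.4% (40.6% to 50.2%) at the highest peak to 21.4%, 10.8%, 3.92% and 1.61%. Median STAT5A scores at these ranks were 88.1, 55.2, 37.8, 28.9 and 20.8. A fall with STAT5A score was not particular to clusters. Among single peaks, the wild type shares in deciles 1 to 5 were 99.4%, 91.6%, 53.5%, 14.4% and 3.08%. For Stat5a-null STAT5B they were 66.6%, 19.4%, 5.48%, 1.94% and 1.40%. Among the 354 clusters with wild type STAT5B, 342 (96.6%) had it on their highest STAT5A peak. Among the 217 with Stat5a-null STAT5B, 197 (90.8%) did. Where a cluster held only 1 STAT5B peak, that peak was on the highest STAT5A peak in 100 of 111 clusters in wild type and in 106 of 122 clusters in Stat5a-null tissue.

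**Figure D3:**
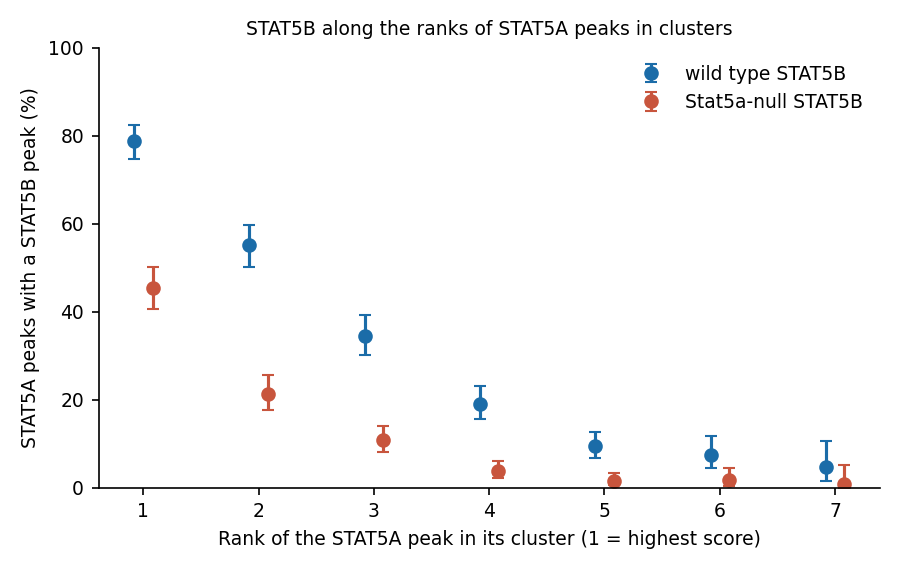
Share of STAT5A peaks that overlap a STAT5B peak, in percent, by rank of the STAT5A peak within its cluster (1 is the highest score). Points are shares with exact 95% intervals. Wild type falls from 78.8% at rank 1 to 9.45% at rank 5, and Stat5a-null from 45.4% to 1.61%.

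STAT5B peaks in clusters sat almost without exception on a STAT5A peak, which was not particular to clusters. Over the whole lists, 6888 STAT5A peaks overlapped a wild type STAT5B peak, in a list of 6976. For Stat5a-null STAT5B the number was 2537, in a list of 2578. Clusters held 894 wild type STAT5B peaks (12.8% of that list), of which 5 overlapped no STAT5A peak, and 368 Stat5a-null STAT5B peaks (14.3% of that list), of which 2 did not. Centres of overlapping STAT5A and wild type STAT5B peaks in clusters lay a median of 19 bp apart, and those of STAT5A and Stat5a-null STAT5B a median of 20 bp. Some STAT5A peak was without STAT5B in nearly every cluster. In only 3 clusters did each STAT5A peak overlap a wild type STAT5B peak, and in none did each overlap a Stat5a-null one.

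The number of STAT5B peaks per cluster was lower in Stat5a-null tissue, which has the shorter list. Of the 434 clusters, 287 held fewer Stat5a-null than wild type STAT5B peaks, 65 held an equal number above 0 and 6 held more. Wild type STAT5B alone was found in 141 clusters, STAT5B of both genotypes in 213, Stat5a-null STAT5B alone in 4 and neither in 76. Within clusters, 353 of the wild type STAT5B peaks had a Stat5a-null partner, a share of 39.5% against 34.8% over the whole wild type list. Conversely, 95.9% of the Stat5a-null peaks in clusters overlapped a wild type STAT5B peak, against 94.1% over that whole list. Scores of STAT5B peaks were slightly higher inside clusters than outside, with medians of 19.1 and 17.4 in wild type and of 18.1 and 16.4 in Stat5a-null tissue. The shares of STAT5B peaks with a partner in the other genotype were not compared among peaks of like score.

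Partial sharing was the usual pattern where a cluster had several wild type STAT5B peaks. In the 155 clusters with 3 or more of them, all were found in Stat5a-null tissue in 15, some in 117 and none in 23. Since 39.5% of the wild type STAT5B peaks in clusters were shared, partial sharing is the likeliest outcome for any group of 3 or more. The wild type STAT5B peaks found in Stat5a-null tissue were mostly the high ones. Of the highest wild type STAT5B peak of each of these clusters, 74.2% (66.6% to 80.9%) overlapped a Stat5a-null peak. The share was 43.2% for the second, 29.0% for the third and 24.4% (15.6% to 35.1%) for the fourth. A list that is shorter for any reason and ranks sites alike would give the same fall, and list length and genotype cannot be told apart here. Of the 29 clusters with 5 or more wild type STAT5B peaks, 28 held at least 1 Stat5a-null peak.

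**Figure D4:**
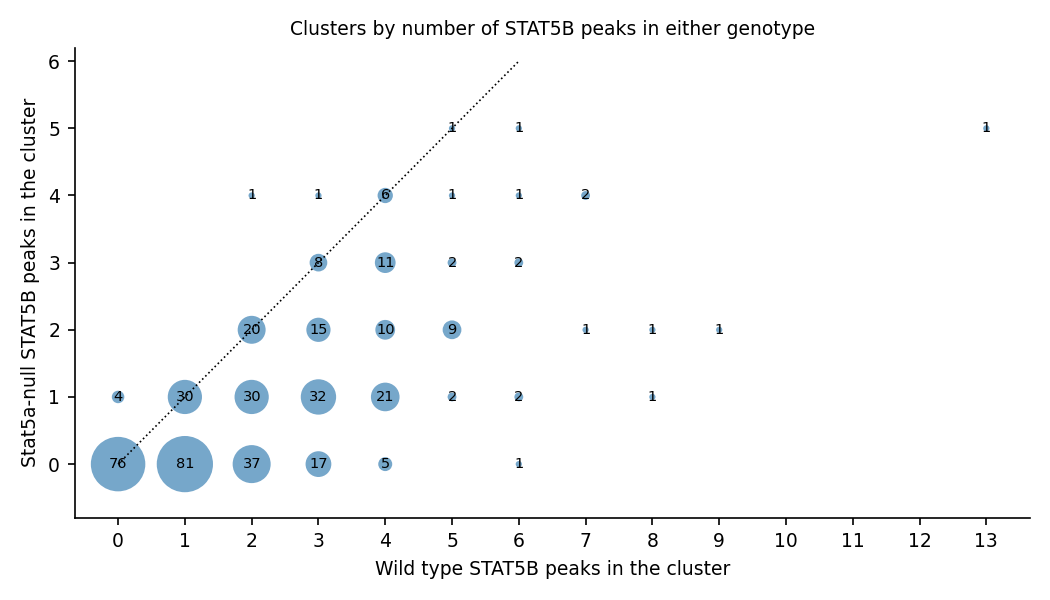
Number of Stat5a-null STAT5B peaks (vertical) against number of wild type STAT5B peaks (horizontal) in each of the 434 clusters. The area and the printed number of each circle give the number of clusters, and the dotted line marks equal numbers. Only 6 clusters lie above the line, and 287 lie below it.

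Clusters sorted by their STAT5B peaks differed in STAT5A height. Clusters with STAT5B in both genotypes had a median highest STAT5A score of 125 (range 57.5 to 238.9), those with wild type STAT5B alone 69.9 (37.8 to 152.3), and those with no STAT5B 37.6 (18.0 to 62.3). All 176 clusters with a STAT5A peak of at least 100 held wild type STAT5B, and 152 of them (86.4%) held Stat5a-null STAT5B. High STAT5A peaks mostly had wild type STAT5B anywhere. Counted per peak over the whole top decile (scores from 83.6), 99.2% had wild type and 68.2% had Stat5a-null STAT5B. Of the 83 clusters with no peak reaching 50, 17 held wild type and 2 held Stat5a-null STAT5B. The groups sorted by their STAT5B peaks had medians of 6, 6 and 5 STAT5A peaks, in the order given above. Of the 51 clusters with 8 or more peaks, 39 held Stat5a-null STAT5B and 1 held no STAT5B.

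The cluster with the working name St3gal1, on chromosome 15 from 66911887 to 66993369 (mm9), spanned 81.5 kb and had the highest summed score of all clusters, 1235.9. Its 16 STAT5A peaks scored from 13.7 to 151.7 with a median of 70.8, and 6 of them were in the top decile of the list. The highest, 151.7, lay 44.8 kb from the start of the cluster, and the next 3 scored 117.7, 115.2 and 113.4 at 49.5 kb, 0.835 kb and 66.5 kb. High peaks were thus spread over the whole length. All 4 of these, and a peak of 90.2, had STAT5B in both genotypes, with wild type STAT5B scores of 46.8, 28.2, 29.6, 26.0 and 20.1. A further 7 STAT5A peaks, scoring between 52.6 and 91.7, had STAT5B in wild type tissue only. The remaining 4, at 13.7, 36.9, 50.3 and 72.7, had none on them. An additional wild type STAT5B peak with a score of 21.5 lay 60.1 kb from the start, beside the STAT5A peak of 72.7 without overlapping it.

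The cluster with the working name Socs3, on chromosome 11 from 117819490 to 117877051, packed 16 STAT5A peaks into 57.6 kb, at scores from 17.9 to 109.9. A first group of 4 low peaks, scoring 20.6, 23.4, 32.8 and 22.7, occupied the first 5.42 kb and carried no STAT5B. The next peak, with a score of 83.5 at 11.1 kb, had STAT5B in both genotypes, scoring 22.2 in the wild type list and 20.6 in the Stat5a-null list. Between 21.5 kb and 42.4 kb stood 7 neighbouring peaks of 46.2 to 86.9, which had STAT5B in wild type tissue and none in Stat5a-null tissue. The highest peak, 109.9 at 49.4 kb, again had STAT5B in both. Peaks of 48.8 and 67.3 before this stretch and the last peak, of 17.9, had none. The peak of 86.9 had no Stat5a-null STAT5B peak and that of 83.5 had one, but these scores are close and each call rests on 1 library. Over the whole list, 68.2% of STAT5A peaks in the top decile and 20.7% in the second had Stat5a-null STAT5B.

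On chromosome 13 from 103636594 to 103696332, 13 STAT5A peaks spanned 59.7 kb with scores from 18.5 to 108.7. Wild type STAT5B was called on the 6 highest, which scored 64.9, 65.3, 74.4, 76.6, 104.1 and 108.7. The other 7, from 18.5 to 41.9, carried none. No Stat5a-null STAT5B peak was called anywhere in it, which makes it the only cluster with 5 or more wild type STAT5B peaks and none in Stat5a-null tissue.

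**Figure D5:**
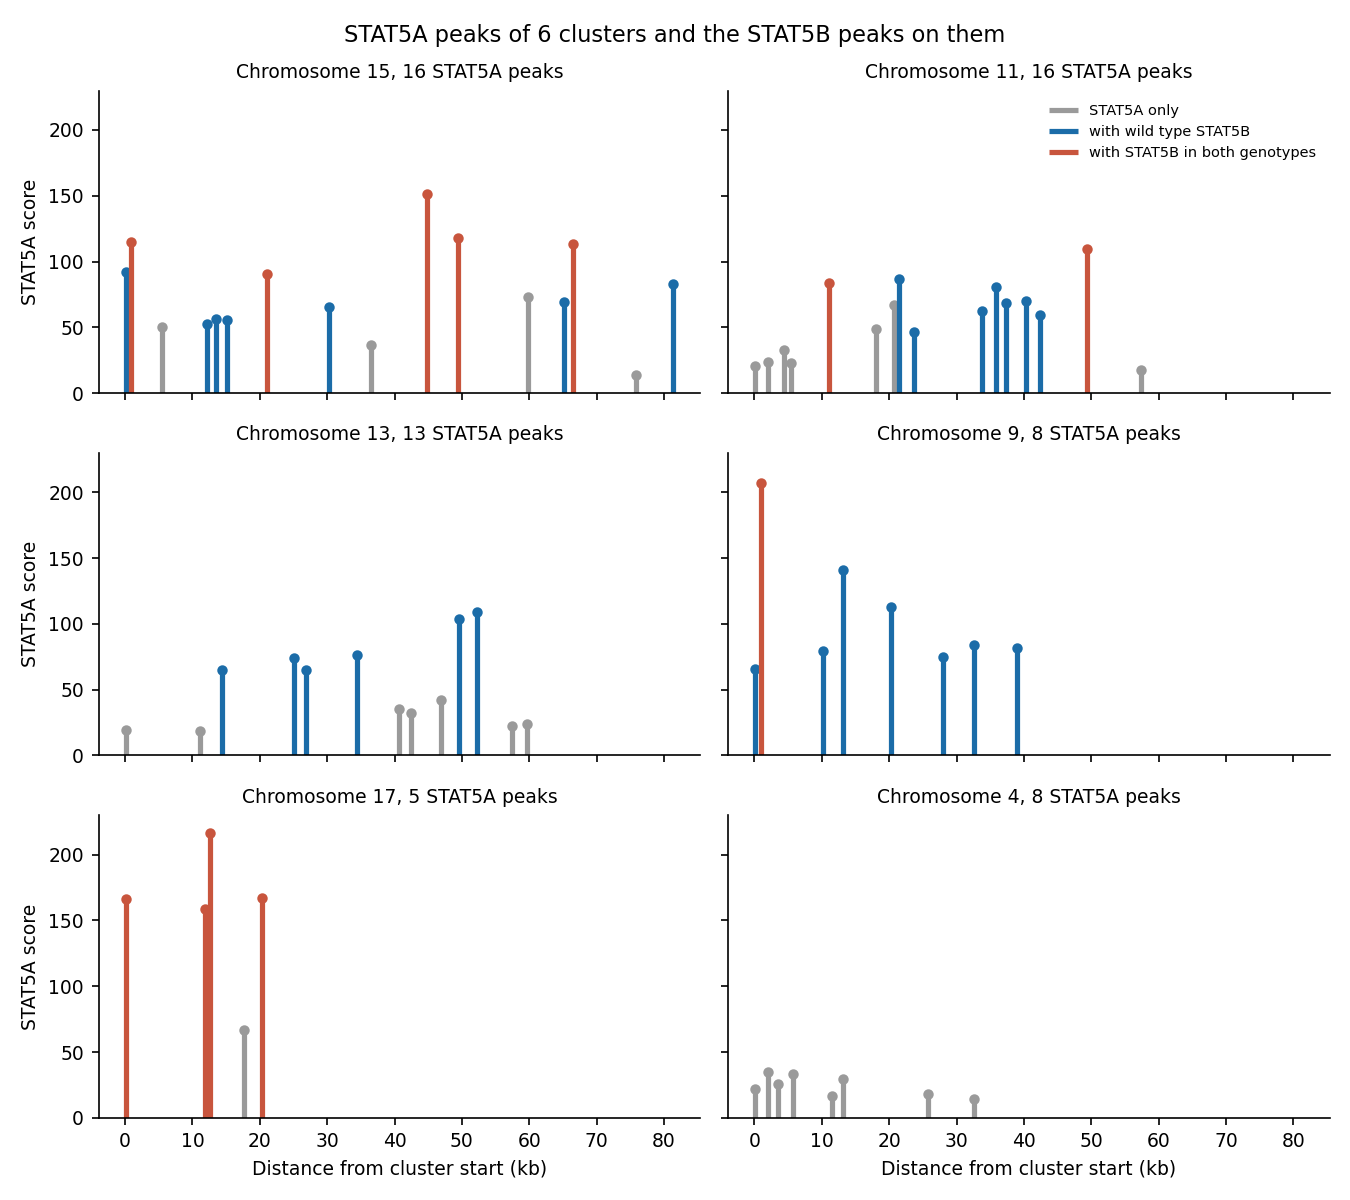
STAT5A peaks of 6 clusters: height is the STAT5A score, the horizontal axis is the distance from the cluster's start in kb, and colour shows which STAT5B lists have a peak on the STAT5A peak. The 3 largest clusters stand first, followed by 1 with wild type STAT5B on all 8 peaks (chromosome 9), 1 with STAT5B of both genotypes on 4 of 5 peaks (chromosome 17) and 1 with no STAT5B (chromosome 4).

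Other clusters with 10 or more peaks varied as widely. That on chromosome 11 from 57467007 to 57510780 had 12 STAT5A peaks of modest height, the highest 63.7, with wild type STAT5B on 2 of them and no Stat5a-null STAT5B. On chromosome 12 from 81913018 to 81986555, 5 of the 11 peaks scored above 100. There the highest, 135.7, and a peak of 120.1 were without Stat5a-null STAT5B. Peaks of 129.7, 121.9, 100.1 and 73.5 in the same cluster had it, so the highest STAT5A peak was not among those with STAT5B in both genotypes. The second cluster of 11 peaks on that chromosome, from 87397786 to 87451155, had 7 wild type and 2 Stat5a-null STAT5B peaks. Chromosome 2 carried 2 clusters of 11 peaks, from 28377480 to 28433732 and from 103188369 to 103237925. In the former 4 STAT5A peaks (123.8, 107.0, 95 and 40.2) had wild type STAT5B, and the first 3 of these also had Stat5a-null STAT5B. In the latter, peaks of 187.2, 115.2 and 85.2 had STAT5B in both genotypes, while peaks of 100.5, 43.5 and 32.8 had it in wild type tissue only.

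High and low STAT5A peaks stood together in many clusters, and those with some of the highest peaks are given as examples. The highest of all clustered peaks scored 238.9, which ranked 5 in the whole STAT5A list, in a cluster of 10 on chromosome 4 from 40792422 to 40855560. Its cluster also held peaks of 204.0 and 153.6, and these 3 alone had STAT5B in both genotypes. A peak of 101.3 in the same cluster had no STAT5B in either. On chromosome 2 from 58021650 to 58050906, a peak of 232.9 stood among 5 others that scored 13.9 to 66.6. In the cluster on chromosome 17 from 74299554 to 74320053, by contrast, 4 of the 5 peaks scored above 150 (158.9, 166.4, 166.9 and 216.4), and all 4 had STAT5B in both genotypes.

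Clusters with several wild type STAT5B peaks differed in Stat5a-null tissue. On chromosome 9 from 107198007 to 107237052, all 8 STAT5A peaks, scoring 65.4 to 207.1, had a wild type STAT5B peak, but only the highest had a Stat5a-null one. The 2 next highest, 140.7 and 113.2, had none. The other clusters with wild type STAT5B on each STAT5A peak had 6 peaks apiece, and Stat5a-null STAT5B on 4 of them on chromosome 9 (103136991 to 103157159) and on 3 on chromosome 11 (45609339 to 45645284). On chromosome 13 from 58687668 to 58730312 and on chromosome 19 from 44460769 to 44505230, 5 peaks carried Stat5a-null STAT5B, as many as in the cluster of 16 peaks on chromosome 15. In these clusters on chromosomes 13 and 19, the lowest-scoring Stat5a-null STAT5B peak (11.8 and 10.1) lay on a STAT5A peak without wild type STAT5B. With 1 library per genotype, these differences between clusters could not be set against a spread between replicates.

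Among the 76 clusters with no STAT5B peak in either genotype, the one with the most STAT5A peaks was on chromosome 4 from 141423485 to 141456194. Its 8 peaks scored 14.6 to 34.5, none of them in the top 3 deciles of the list. The other clusters named for most peaks without STAT5B had 7 peaks each, with highest scores of 33.1 to 55.8. The densest cluster, on chromosome 9 from 48545617 to 48554184, placed 5 peaks within 8.57 kb, or 0.584 peaks per kb, against a median of 0.224. It held 2 wild type STAT5B peaks and 1 Stat5a-null peak.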

How the data were processed

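ChIP-seq peak lists of 3 libraries were used, and the other 7 samples were not analysed here. The submitters' processing notes name CASAVA, BWA, HOMER and the mm9 build. The control libraries, peak thresholds and tool versions were not given in the sources used here. The deposited lists give 1 signal value per peak (called the score), whose scale is not stated. All peaks of a list have 1 width: 276 bp (STAT5A), 252 bp (wild type STAT5B) and 258 bp (Stat5a-null STAT5B). Starts were read as 0-based and are printed 1-based.

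Runs joined peaks at gaps of at most 12.5 kb from end to start. STAT5B counted when it overlapped a peak or a cluster span by at least 1 bp. Deciles were cut over all STAT5A scores. The cluster members and lists were chosen with earlier results of these data known. Named clusters are the 10 with most STAT5A peaks, 5 others each with the highest STAT5A peak, most wild type and most Stat5a-null STAT5B peaks, 5 with most peaks and no STAT5B, and the 3 densest. Examples are printed, and the cluster table decided ties by summed score. Genes at clusters, the gene lists, distance to start sites and motifs within peaks were planned but need an mm9 annotation or genome, and were not run. Python 3.11.15, pandas 2.3.3 and scipy 1.17.1 were used. On simulated data all 40 planted clusters and 300 planted overlaps were found, and bedtools 2.31.1 gave the same 434 clusters.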

Additional observations from a re-analysis of the deposited data

How the results depend on the processing

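Over 40 alternative values of 7 results, 27 stayed within the counting interval or within 1.5 times the count, and 13 moved. The number of clusters followed the rule: 34 at gaps of 5 kb, 1049 at 25 kb, 968 with at least 4 peaks, 225 with at least 6 and 117 from the higher-scoring 50% of the STAT5A list. That last setting raised the share of clusters with wild type STAT5B to 97.4% and with Stat5a-null STAT5B to 74.4%, and the shares of clustered peaks to 61.5% and 24.9%, since it removes the low peaks by construction. With gaps of 5 kb, 41.4% of clustered peaks had wild type and 11.05% Stat5a-null STAT5B, and 38.2% of clusters had Stat5a-null STAT5B; the cause was not tested. With at least 4 peaks 43.7% of clusters did. Stricter overlap and gaps between centres moved nothing beyond these limits. In place of deciles, 20 score bins (chosen after seeing the data) gave 35.0% and 14.3% from single peaks. Alternatives on genes, start sites and the motif were not run. No paired analysis was possible because each group has 1 library, and no replicate could be left out. Total reads, which limit how many weak sites were called, are unknown.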

Other observations

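Clusters were found on each of the 19 autosomes and the X, and not on unplaced sequence. Chromosome 11 had the most, 42, with 15.5% of its STAT5A peaks in clusters, and chromosome 3 the lowest share among the autosomes, 5.95%. The X chromosome held 2 clusters with 2.05% of its 537 STAT5A peaks; 1 of these 2 held STAT5B, in both genotypes. The median autosome had 17.0 clusters per 100 Mb, against 34.5 on chromosome 11 and 1.20 on the X. Peak density differs alike, at 13.96 STAT5A peaks per Mb on chromosome 11 and 3.22 on the X, and its part in the number of clusters was not tested.

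Distances between clusters are given as a description and were not compared with a random scatter. The nearest other cluster lay a median of 1136 kb away, 229 clusters had none within 1 Mb, and 47 had one within 100 kb. Groups of 3 clusters with gaps of at most 100 kb occurred at 3 places: chromosome 13 from 37629454 to 37853144 (18 STAT5A peaks, 3 wild type and no Stat5a-null STAT5B peaks), chromosome 13 from 51839624 to 52088074 (21, 9 and 2) and chromosome 15 from 52998235 to 53126333 (17, 7 and 2). These peaks are counted within the clusters alone. Joined by the same rule, the wild type STAT5B list formed 21 clusters of its own, all overlapping a STAT5A cluster. Nearly every STAT5B peak overlaps a STAT5A peak, so this was all but given in advance and shows nothing further. Of the 62 runs of 4 peaks in the wild type STAT5B list, 38 overlapped a STAT5A cluster. The Stat5a-null list formed no cluster of its own, and 6 of its 7 runs of 4 peaks overlapped a STAT5A cluster.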
